A study of Mus musculus with 10 samples.

Results

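The 9 genes described here encode components and regulators of the complement system in interscapular brown adipose tissue (iBAT) of young mice. They are *C1ra*, *C1s1*, *C4b* and *C2* of the classical pathway, *C3*, *Cfb* and *Cfd* of the alternative pathway, and the regulators *Serping1* and *Cd55*. They are 9 of the 27267 genes in the deposited table, and they were chosen from results of the same genotype comparison, so their difference between genotypes is given as a description, with no p-value, and whether the common test called a gene is reported only as a count that supports nothing. The study sequenced iBAT RNA of 5 wild-type (WT) mice and of 5 mice labelled *Mgp*-KO. All were labelled as male C57BL/6 mice of 4 weeks, and the methods give a chow diet. By the methods, the mice labelled *Mgp*-KO carried a global deletion of *Mgp*, not one of fat cells alone. *Mgp* encodes matrix Gla protein, an inhibitor of bone morphogenetic proteins, and its reads went against the label in 2 of the 5 libraries (*Mgp*-KO 4 and *Mgp*-KO 5).

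Complement is a cascade of plasma and cell-surface proteins that tags particles, recruits leukocytes and lyses membranes. The classical pathway starts when C1q binds a surface and its proteases C1r and C1s cut C4 and C2, which together form an enzyme that cuts C3. The alternative pathway builds its own C3-cutting enzyme from C3b and factor B, and factor D activates it. Adipose tissue is a known source of factor D, also called adipsin, and of C3, whose C3a fragment is the precursor of acylation-stimulating protein. Liver makes most plasma complement, and macrophages make much of the C1q.

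Reads assigned to genes numbered 9253793 to 22252260 per library. The 9 genes held 15887 to 64852 of them, or 0.153% to 0.356% of the reads. Before the results, several libraries stood apart. The libraries labelled *Mgp*-KO 4 and *Mgp*-KO 5 had 309 and 282 reads of *Mgp*, where *Mgp*-KO 1 to 3 had 0 or 1 and the WT libraries had 485 to 805, so "the *Mgp*-KO-labelled libraries" is used throughout and the main differences are also given within replicates 1 to 3. The library labelled WT 2 had 5094 normalized counts of *Xist*, which marks cells with an inactive X chromosome, and 3.74 over 4 genes of the Y chromosome, where the other libraries had at most 44.0 and at least 1457. Replicates 4 and 5 of both groups differed from replicates 1 to 3 in depth (9253793 to 13281873 reads against 19616366 to 22252260) and in the share of mitochondrial rRNA (6.50% to 16.7% of the reads against 0.771% to 1.72%). The labels do not say what the replicate numbers mark.

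To show where transcription of the 2 most abundant of these genes starts, the 250 bases before the RefSeq start are printed for *C3* (build GRCm38.p6, minus strand, chr17:57228137-57228386) and *Cfd* (plus strand, chr10:79890603-79890852). Both read 5′ to 3′ toward the gene. Capitals mark a match to any of 5 short motifs that were searched on both strands.
*C3*: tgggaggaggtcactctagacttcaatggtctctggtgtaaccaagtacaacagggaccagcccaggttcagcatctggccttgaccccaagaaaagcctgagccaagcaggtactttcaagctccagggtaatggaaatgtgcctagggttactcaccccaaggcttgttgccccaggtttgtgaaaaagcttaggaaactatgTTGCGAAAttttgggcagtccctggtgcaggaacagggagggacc
*Cfd*: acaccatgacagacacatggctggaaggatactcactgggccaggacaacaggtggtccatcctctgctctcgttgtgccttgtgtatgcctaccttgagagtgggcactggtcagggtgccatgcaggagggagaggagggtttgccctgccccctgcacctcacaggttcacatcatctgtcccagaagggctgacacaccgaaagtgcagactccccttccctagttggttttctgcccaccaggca

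The motifs were C/EBP (TTNNGCAA), the STAT element (TTCNNNGAA), the interferon response element core (GAAANNGAA), NF-kB (GGGANNTTC) and the glucocorticoid receptor element (ACANNNTGT). In the window of 300 bases around each start, the *C3* window held 1 match, to C/EBP on the opposite strand, with its first base at -45 from the start. The *Cfd* window held none. Over all 32851 RefSeq windows of this length, 10.8% held the C/EBP letters, 8.30% the STAT letters, 8.56% the interferon letters, 3.94% the NF-kB letters and 6.85% the glucocorticoid receptor letters. Windows were at hand for 5 of the 9 genes. *C1ra* had 1 C/EBP match with its first base at 17 after the start and 1 STAT match at 33, 1 of 2 windows of *C1s1* had a C/EBP match at -242, and the *Cd55* window had none. A match describes these letters only and is not a binding site.

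The genes spanned a wide range of expression. Levels are compared between genes as normalized counts per kb of annotated exon, using the union of all exons. In WT, *Cfd* was the highest at 27800 ± 11608 per kb (SD, n = 5) and was 19th of 25623 genes ordered by this level. *C3* followed at 2833 ± 379 per kb, 179th in the same order. The others were at least several times lower: *Serping1* at 254 ± 125 per kb, *C1s1* at 163 ± 18.9, *C1ra* at 45.5 ± 10.3, *Cd55* at 25.3 ± 5.54, *C4b* at 20.8 ± 9.58, *C2* at 6.79 ± 2.84 and *Cfb* at 1.45 ± 1.19 per kb. The WT ranges of neighbours in this order overlapped for *Serping1* and *C1s1*, for *Cd55* and *C4b*, and narrowly for *C4b* and *C2*. They did not overlap for the other 5 pairs of neighbours.

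**Figure D1:**
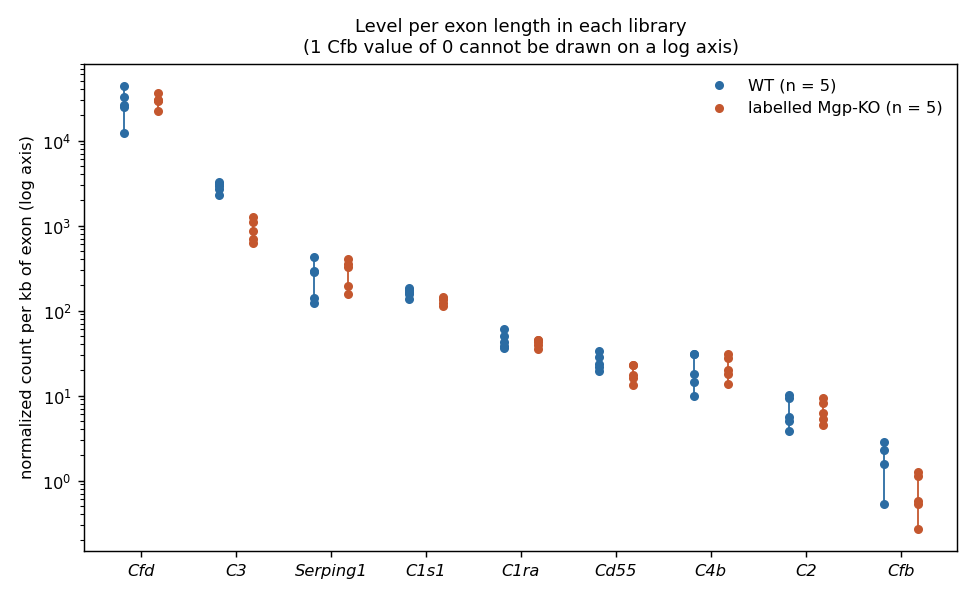
Normalized counts per kb of exon (log axis) of each complement gene in the 5 WT and the 5 *Mgp*-KO-labelled libraries, ordered by the WT mean, with a point for each library and a line from the lowest to the highest value above 0. *Cfd* and *C3* sit above all other genes in WT, and *C3* is the gene whose groups are separate.

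Together *C3* and *Cfd* made up 95.0% to 98.1% of the reads of the 9 genes in WT and 94.3% to 96.9% in the *Mgp*-KO-labelled libraries. Summed per kb, the alternative pathway genes (*C3*, *Cfb* and *Cfd*) reached 15072 to 47225 in WT and the classical pathway genes (*C1ra*, *C1s1*, *C4b* and *C2*) 195 to 277. The ratio of the alternative to the classical sum was between 57.7 and 242 in WT and between 125 and 184 in the *Mgp*-KO-labelled libraries, so the groups overlapped. *Cfd* sets this ratio, since it outweighs *C3* per kb in each library. In bulk tissue, fewer cells of a type and less RNA per cell cannot be told apart, for these genes as for any other.

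*C3* (chr17:57203970-57228136, minus strand, GRCm38, protein coding) encodes the protein on which the pathways of complement converge. Its normalized counts were 11659, 13744, 15994, 16550 and 14899 in WT 1 to 5. They were 4466, 5717, 3528, 6548 and 3206 in the *Mgp*-KO-labelled libraries 1 to 5. Every library labelled *Mgp*-KO was lower than every WT library, with means of 14569 ± 1950 and 4693 ± 1424 (SD, n = 5 each), a ratio of WT to *Mgp*-KO of 3.10. The log2 difference was -1.68 ± 0.24 (SE), -1.61 ± 0.20 in replicates 1 to 3 alone and -1.78 ± 0.49 in replicates 4 and 5 alone, the set whose *Mgp*-KO-labelled libraries held *Mgp* reads. Between 2735 and 21756 reads lay behind each value. Of the 9 genes, *C3* also varied little within WT, with a coefficient of variation of 13.4%, against 11.6% for *C1s1* and more for each of the others.

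*Cfd* (chr10:79890853-79892655, plus strand, protein coding) encodes factor D, the protease that cuts factor B. Its normalized counts were 24096, 22630, 29631, 40573 and 11225 in WT 1 to 5. They were 27075, 27854, 20445, 33620 and 27316 in the *Mgp*-KO-labelled libraries 1 to 5. The groups overlapped throughout, and the WT libraries alone spread 3.61-fold, with replicate 5 the lowest and replicate 4 the highest. The log2 difference of *Cfd* was 0.19 ± 0.33 (SE), -0.02 ± 0.18 in replicates 1 to 3 alone and 0.51 ± 0.75 in replicates 4 and 5 alone. In the *C3* to *Cfd* ratio of normalized counts, WT libraries lay between 0.408 and 1.33 and the *Mgp*-KO-labelled libraries between 0.117 and 0.205.

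*Cfb* (chr17:34856374-34862518, minus strand, protein coding) encodes factor B, the catalytic part of the alternative C3-cutting enzyme. It was close to the limit of detection, with 9, 2, 11, 3 and 0 reads in WT 1 to 5 and 2, 1, 2, 2 and 3 reads in the *Mgp*-KO-labelled libraries. Its mean was under the minimum of 10 normalized counts for testing, so 8 of the 9 genes passed the filter. The 0 reads of WT 5 allow up to 3 reads, or 5.19 normalized counts, for counting error only, and no difference could be read at this depth. Of the exon bases of *Cfb*, 79.5% are also annotated to *Gm20547*, a gene model that runs through *Cfb* and *C2* on the same strand, and STAR's gene counting leaves out reads that overlap more than 1 gene of its annotation. Whether the authors' annotation held *Gm20547* is not given in the sources used here.

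**Figure D2:**
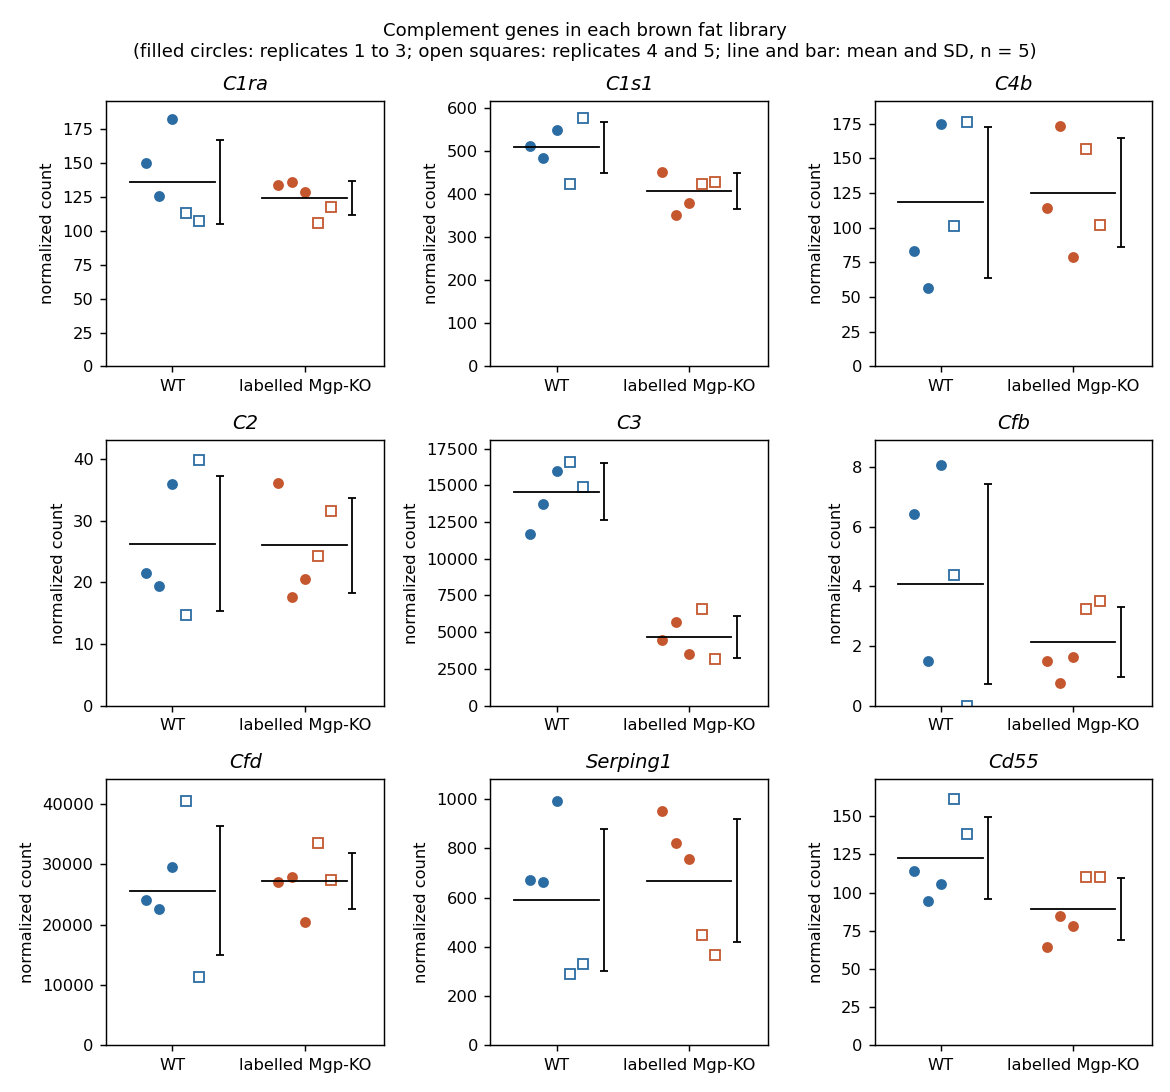
Normalized counts of the 9 complement genes in each library, by group, with filled circles for replicates 1 to 3, open squares for replicates 4 and 5, a line at the mean and a bar for 1 SD (n = 5). The groups are separate for *C3* and overlap for the other 8 genes.

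The classical pathway genes showed no separation of the groups. *C1ra* (chr6:124512405-124523443, plus strand) and *C1s1* (chr6:124530345-124542359, minus strand) encode the C1r and C1s proteases and lie 6901 bases apart, 12.3 Mb from *Mgp* on the same chromosome. *C1s1* had normalized counts of 512, 485, 549, 424 and 576 in WT and of 452, 351, 380, 424 and 429 in the *Mgp*-KO-labelled libraries. WT 4 was as low as *Mgp*-KO 4, and the other WT libraries were above each library labelled *Mgp*-KO. The log2 difference of *C1s1* was -0.32 ± 0.16 (SE), and -0.39 ± 0.14 within replicates 1 to 3. *C1ra* ranged from 107 to 182 in WT (median 126) and from 105 to 135 in the *Mgp*-KO-labelled libraries (median 128), with a log2 difference of -0.11 ± 0.20, and -0.19 ± 0.17 within replicates 1 to 3. The ratio of *C1s1* to *C1ra* per kb was between 2.87 and 5.12 in WT and between 2.47 and 3.84 in the *Mgp*-KO-labelled libraries.

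*C4b* (chr17:34728380-34743882, minus strand) and *C2* (chr17:34862604-34898265, minus strand) encode the substrates of C1s and lie with *Cfb* in the major histocompatibility region, with 85 bases between the annotated ends of *Cfb* and *C2*. *C4b* had normalized counts of 83.0, 56.9, 175, 101 and 177 in WT and of 115, 174, 78.8, 157 and 102 in the *Mgp*-KO-labelled libraries. Both groups covered nearly the same range, and the log2 difference was 0.15 ± 0.34 (SE), 0.30 ± 0.44 within replicates 1 to 3 and -0.08 ± 0.46 within replicates 4 and 5. *C2* rested on 10 to 49 reads per library, between 14.7 and 39.8 normalized counts in WT and between 17.6 and 36.2 in the *Mgp*-KO-labelled libraries, with a log2 difference of 0.04 ± 0.35, and -0.06 ± 0.36 within replicates 1 to 3.

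Several of these genes have near-identical copies or share exons, which limits what their counts mean. Of the 50-base stretches of the longest annotated transcript, 35.2% were shared with *C4a* for *C4b*, 48.0% with *C1rb* for *C1ra*, 24.3% with *C1s2* for *C1s1* and 10.7% with *Cd55b* for *Cd55*. For *C2*, 58.0% were shared with *Gm20547*. None were shared with another gene for *C3*, *Cfd* or *Serping1*. *C4a* took 1.94% to 14.9% of the reads of *C4a* and *C4b* together, with the highest share in *Mgp*-KO 4, and *C1s2* had between 0 and 3.77 normalized counts. *C1rb* and *Cd55b* were not listed under these symbols in the deposited values, so their reads could not be compared. STAR's gene counting leaves out reads that map to more than 1 place, so the counts of these genes rest on reads that map to 1 place.

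The 2 regulators act on different steps. *Serping1* (chr2:84765387-84775444, minus strand) encodes the C1 inhibitor, which inactivates C1r and C1s. Its normalized counts were 672, 664, 995, 287 and 329 in WT and 952, 821, 757, 448 and 365 in the *Mgp*-KO-labelled libraries. In both groups replicates 4 and 5 were the lowest, and the genotype groups overlapped, with a log2 difference of 0.24 ± 0.38 (SE), or ± 0.155 once a term for the replicate set was fitted, and 0.14 ± 0.18 within replicates 1 to 3. *Cd55* (chr1:130439027-130462744, minus strand) encodes decay-accelerating factor, which takes apart the C3-cutting enzymes on cell surfaces and also marks adipose progenitor cells. Its normalized counts were 114, 94.3, 106, 161 and 138 in WT and 64.1, 84.9, 78.0, 110 and 110 in the *Mgp*-KO-labelled libraries. Within replicates 1 to 3, and also within replicates 4 and 5, every WT library was above every library labelled *Mgp*-KO. Across sets the groups overlapped. How many of all genes separate in this way within a set was not counted. Sets this small can also separate by chance, so nothing is read from this separation. The log2 difference of *Cd55* was -0.46 ± 0.23 (SE), -0.47 ± 0.18 within replicates 1 to 3 and -0.44 ± 0.37 within replicates 4 and 5.

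Among the 8 genes that passed the filter, the log2 difference was below 0 for 4 (*C3*, *Cd55*, *C1s1* and *C1ra*) and above 0 for the other 4. Their median was -0.04, beside 0.03 over all 13714 genes tested. By limma with Benjamini-Hochberg adjustment over all genes, called at an adjusted p under 0.05, 1 of the 8 (*C3*) was among the called genes, where 0.0656% of all genes (9 of 13714) were called. With a term for the replicate set it was again *C3* alone, beside 2.36% of all genes, and the same held within replicates 1 to 3, beside 3.54%. Within replicates 4 and 5, 0 of the 13714 genes were called (0.00%), with 855 at an unadjusted p under 0.05. The ranges of the groups did not overlap for 1 of the 8 genes, beside 3.50% of all genes. The genes were chosen on this contrast, and nothing is read from these counts.

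The call of *C3* was lost in edgeR, in limma without a filter on low values, and in limma when WT 2, WT 3, WT 5, *Mgp*-KO 1, *Mgp*-KO 3 or *Mgp*-KO 5 was left out without a set term, where the log2 difference lay between -1.81 and -1.55 over all 10 omissions. Without the 3 libraries with the most reads of skeletal muscle genes (WT 3, *Mgp*-KO 2 and *Mgp*-KO 5) and with the set term, the log2 difference of *C3* was -1.51 ± 0.21 (SE), and no gene of the 13714 passed the threshold (2083 at an unadjusted p under 0.05).

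The replicate sets, which hold both genotypes, gave a comparison other than the genotype contrast. The genes were chosen with earlier results of these data known, and whether those covered the sets is not given. It asks whether a gene differed between the sets, with genotype as a term in limma and adjustment over all genes tested. Of the 8 genes, 2 were called, beside 38.2% of all genes (5243 of 13714), so the share among them was not above the background. *Serping1* was lower in replicates 4 and 5, at 357 ± 68.5 (SD, n = 4), than in replicates 1 to 3, at 810 ± 140 (SD, n = 6), a log2 difference of -1.18 ± 0.16 (SE, limma adjusted p = 3.1e-04). Every library of replicates 4 and 5 was under every library of replicates 1 to 3. *Cd55* was higher in replicates 4 and 5, at 130 ± 24.7 against 90.3 ± 18.5, a log2 difference of 0.53 ± 0.15 (SE, limma adjusted p = 0.019), and this call was lost without WT 4 (limma adjusted p = 0.053) and without a genotype term (limma adjusted p = 0.064). *C1ra* was lower in each library of replicates 4 and 5 (105 to 117) than in those of replicates 1 to 3 (126 to 182), but its log2 difference of -0.35 ± 0.15 did not pass (limma adjusted p = 0.089). *C3* did not pass, with a log2 difference of 0.11 ± 0.22 (limma adjusted p = 0.71), nor did *Cfd*, *C1s1*, *C2* or *C4b*, with limma adjusted p-values of 0.48 to 0.97.

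**Figure D3:**
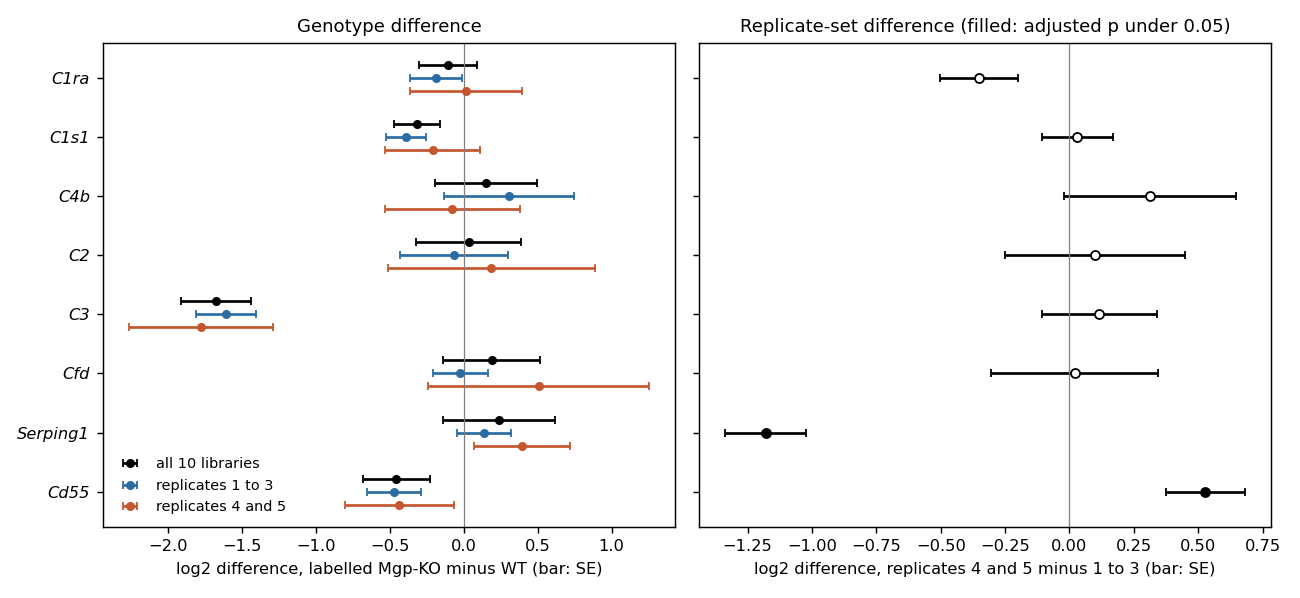
Left, the log2 difference between the *Mgp*-KO-labelled libraries and WT with its SE for the 8 genes that passed the filter, over all 10 libraries and within each replicate set. Right, the log2 difference between replicates 4 and 5 and replicates 1 to 3, filled where the limma adjusted p was under 0.05. *C3* stands at -1.68 on the left and 0.11 on the right, and *Serping1* at 0.24 on the left and -1.18 on the right.

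The other genes of the system were taken from 7 lists ordered by role. Of 45 such genes, 35 were in the table and 22 passed the filter. Their log2 differences were above 0 for 12 and below 0 for 10, with a median of 0.06 beside 0.03 over all genes. None passed in limma without a further term. There 3 had an unadjusted p under 0.05 (*Vtn* and *Cpn2* among them), beside 1421 of all 13714 genes. edgeR called 0, beside 3 of all 13714 genes, and DESeq2 called 1, beside 374 of 16549. With the set term, 1 of 22 was called, beside 2.36% of all genes.

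That gene was *Vtn* (chr11:78499091-78502324, plus strand), which encodes vitronectin, a protein that binds the terminal complex and keeps it off membranes. Its normalized counts were 140, 158, 162, 164 and 202 in WT and 91.9, 75.0, 108, 87.4 and 82.1 in the *Mgp*-KO-labelled libraries. Every library labelled *Mgp*-KO was under every WT library, as for 3.50% of all genes in either direction, and the log2 difference was -0.89 ± 0.18 (SE, limma adjusted p = 0.074) without a further term and -0.89 ± 0.16 with the set term (limma adjusted p = 0.020). With the set term, *Vtn* was lost when WT 2, WT 3 or WT 5 was left out (limma adjusted p of 0.066, 0.065 and 0.051) and without the 3 libraries richest in muscle reads (limma adjusted p = 0.19). Within replicates 1 to 3 its log2 difference was -0.75 ± 0.18 (SE, limma adjusted p = 0.070).

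*Cpn2*, the regulatory subunit of the carboxypeptidase that trims complement anaphylatoxins, had 1145 ± 334 normalized counts in WT and 594 ± 331 in the *Mgp*-KO-labelled libraries (SD, n = 5 each). Its groups overlapped, and the log2 difference was -1.12 ± 0.43 (SE, limma adjusted p = 0.37), and -1.45 ± 0.47 within replicates 1 to 3 (limma adjusted p = 0.14). *Cpn2* was singled out after its values were seen.

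In the remaining lists no gene passed without or with the set term. *C1qa*, a chain of C1q and the highest classical gene per kb in WT at 234 ± 88.0, had a log2 difference of -0.06 ± 0.24 (SE, limma adjusted p = 0.96), and the 3 C1q chains had differences between -0.16 and -0.06. These values average opposite signs, since the C1q chains stood between -0.46 and -0.35 within replicates 1 to 3 and between 0.29 and 0.46 within replicates 4 and 5. *Fcna*, a ficolin of the lectin pathway, was the only gene of its list to pass the filter, at -0.16 ± 0.47. Its value was -0.68 ± 0.47 for replicates 1 to 3 alone, against 0.62 ± 0.83 for the other set. *Cfp*, which encodes properdin, the stabilizer of the alternative enzyme, stood at -0.03 ± 0.26, with -0.41 ± 0.19 and 0.54 ± 0.47 in the same sets. The difference between the sets was not tested, and none of these genes was called within either set. *C8g* of the terminal pathway stood at 0.04 ± 0.24, and 0.19 ± 0.25 within replicates 1 to 3. Among membrane regulators *Cd59a*, an inhibitor of the membrane attack complex, was the highest in WT at 623 ± 236 per kb and had a log2 difference of 0.44 ± 0.38, and 0.23 ± 0.14 within replicates 1 to 3. Among receptors *Cd93* was the highest in WT at 369 ± 75.8 per kb, with a log2 difference of 0.30 ± 0.34. Over all 10 libraries the 6 receptor genes tested stood between 0.20 and 0.86. Of them 0 were called and 0 had an unadjusted p under 0.05 in limma without a further term. In edgeR 2 had an unadjusted p under 0.05 (*Itgam* and *Itgb2*), beside 1569 of all 13714 genes, and 0 were called. Within replicates 1 to 3 they stood between -0.13 (*Itgax*) and 0.50 (*Itgb2*), with *Cd93* at 0.02 ± 0.20. The library labelled *Mgp*-KO 4 was the highest for *Itgam*, at 126 normalized counts where the other 9 had 12.1 to 38.7, and for *Itgax*, at 30.8 where the others had 4.40 to 14.0. Without it the log2 difference of *Itgam* was 0.35 ± 0.37, down from 0.86 ± 0.54, that of *Itgax* 0.37 ± 0.47, down from 0.67 ± 0.52, and that of *Cd93* 0.0022 ± 0.24. *Itgam*, *Itgax* and *Itgb2* were singled out after their values were seen. In the set comparison 5 of the 22 other complement genes were called, beside 38.2% of all genes, so their share was not above the background. *Cd59a*, *Cr1l* and *Cd93* were higher and *C1qc* and *Clu* lower in replicates 4 and 5 (limma adjusted p between 5.3e-04 and 0.039). Of these, *Cr1l*, *C1qc* and *Clu* were singled out after their values were seen.

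**Figure D4:**
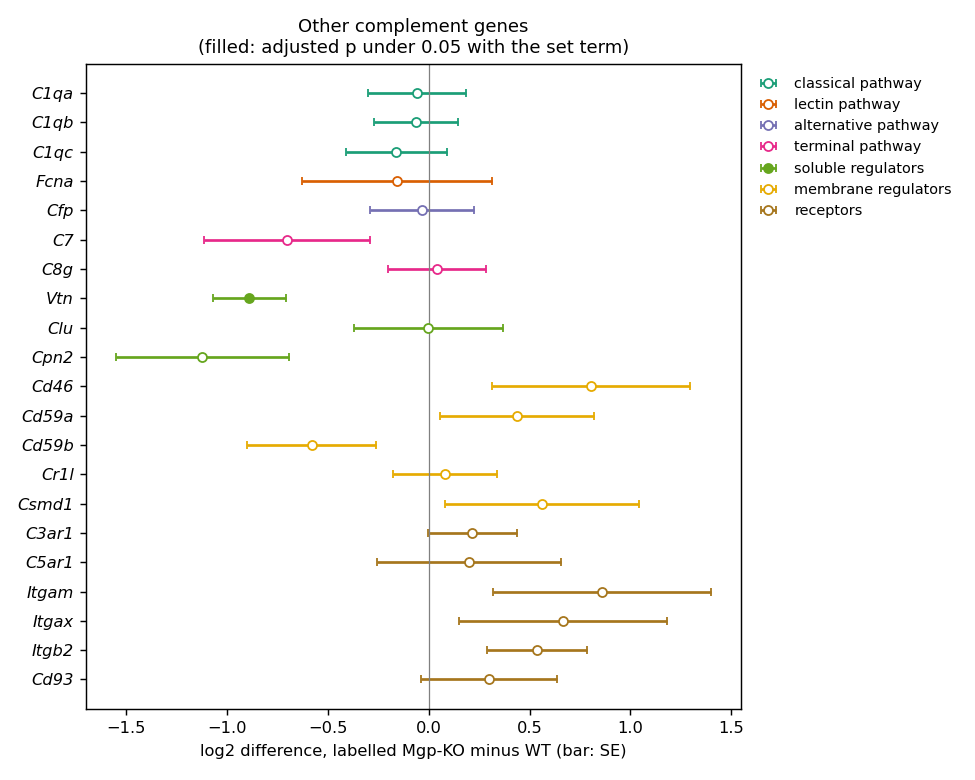
Log2 difference between the *Mgp*-KO-labelled libraries and WT with its SE for 21 of the other complement genes that passed the filter, in colours by role, filled where the limma adjusted p was under 0.05 with the set term. *Vtn* is the filled point at -0.89, and the 6 receptor genes lie to the right of 0 when all 10 libraries are used.

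Cell type markers give the setting of these values, and their part in the result for *C3* was not tested. All 10 brown adipocyte markers passed the filter and 9 had log2 differences below 0, with a median of -0.40 beside 0.03 over all genes. In limma without a further term 0 were called (4 at an unadjusted p under 0.05, beside 1421 of all 13714 genes). With the set term 3 were lower (*Ucp1*, *Dio2* and *Elovl3*), beside 2.36% of all genes called. Of these, 2 (*Ucp1* and *Elovl3*) were also lower within replicates 1 to 3, beside 3.54% of all genes called. *Ucp1*, which defines brown adipocytes, was present in each library, at 38421 to 116019 normalized counts in WT and 2201 to 15641 in the *Mgp*-KO-labelled libraries. *Adipoq*, which adipocytes secrete, ranged from 12547 to 16236 in WT and from 4675 (*Mgp*-KO 4) to 20088. The ratio of *C3* to *Adipoq* was 0.886 to 1.10 in WT and 0.160 to 0.530 in the *Mgp*-KO-labelled libraries other than *Mgp*-KO 4, where it was 1.40.

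Lists of other cells overlapped between the groups in their summed normalized counts. Macrophage and monocyte markers summed to 1263 to 2003 in WT and 1443 to 2012 in the *Mgp*-KO-labelled libraries, with 0 of 10 called and 0 at an unadjusted p under 0.05. Adipose progenitor and fibroblast markers summed to 15939 to 49414 and 12484 to 27190. Over all 13714 genes tested the median was 0.03, with 1421 at an unadjusted p under 0.05, and 2651 with the set term. Of the 10 progenitor and fibroblast markers 7 had log2 differences below 0, with a median of -0.50. Of them 0 were called (3 at an unadjusted p under 0.05, and 4 with the set term). *Cd55*, at -0.46, is used as a marker of such cells, and the part of these cells in its values was not tested. Endothelial markers summed to 19272 to 32293 and 22576 to 59964, and 10 of 10 had log2 differences above 0, with a median of 0.42 and 0 called (1 at an unadjusted p under 0.05, and 2 with the set term). White adipocyte markers summed to 704 to 1127 and 524 to 2988, with 0 of 5 called and 0 at an unadjusted p under 0.05. Hepatocyte markers, which mark the main source of plasma complement, summed to at most 16.1 in 9 libraries and to 227 in *Mgp*-KO 4, where *Alb* had 64 reads against 0 to 4 elsewhere. Skeletal muscle markers summed to 45.7 to 6188 in WT and 36.1 to 35839 in the *Mgp*-KO-labelled libraries, highest in *Mgp*-KO 5 and *Mgp*-KO 2. Red cell markers were highest in *Mgp*-KO 4, at 101672 against 3011 to 26431, and mesothelial markers in *Mgp*-KO 2, at 494 against 58.6 to 199.7.

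Genes of 2 responses known to raise complement transcripts were also listed. Of 8 tested IL6 and acute-phase genes, 6 had log2 differences above 0 and 2 below, with a median of 0.28. The summed normalized counts of all 10 listed genes, which the most abundant genes set, ran the other way within replicates 1 to 3, at 12110 to 15653 in WT and 6666 to 8767 in the *Mgp*-KO-labelled libraries, with no overlap. Over all 10 libraries the sums overlapped, at 12110 to 22706 and 6666 to 20278. In this list 0 were called in limma without a further term (1 at an unadjusted p under 0.05). With the set term 1 was called, beside 2.36% of all genes. It was *Cebpb*, a C/EBP transcription factor, which was lower at a log2 difference of -1.06 ± 0.23 (SE, limma adjusted p = 0.042). Within replicates 1 to 3, 1 of the 8 was called, beside 3.54% of all genes. It was *Hp*, which encodes the acute-phase protein haptoglobin, at -2.25 ± 0.43 (SE, limma adjusted p = 0.038). Of 10 interferon response genes, 0 were called and 0 had an unadjusted p under 0.05.

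Across the 10 libraries, after the mean of each replicate set was subtracted, the members most alike were *C3* and *Cd55* (Pearson r = 0.84 over 10 libraries), and the least alike were *Serping1* and *Cd55* (r = -0.56). Among 10810 genes with a mean of at least 50, the patterns most like *C3* were those of *Ovca2* (r = 0.97) and *Acaca* (r = 0.96), which encodes acetyl-CoA carboxylase. The patterns most like *Cfd* were those of *Mllt11* (r = 0.96) and *Anapc11* (r = 0.95), and those most like *C1s1* were *Dis3l* and *Slc44a1* (r = 0.96 for both). *C2* was most like *Csf1r*, the macrophage growth factor receptor (r = 0.94), and *Nudt13* (r = 0.92). The closest patterns were *Casp9* and *B4galt7* for *C4b* (r = 0.93 and 0.91), *Vcpkmt* and *Plod3* for *Cfb* (0.94 and 0.93), *Vcp* and *Zfp334* for *Serping1* (0.91 for both), *Txnl4a* and *Axl* for *C1ra* (0.88 and 0.87), and *Lrrc40* and *4933434E20Rik* for *Cd55* (0.92 and 0.91). The pattern of *Cfb* rests on at most 11 reads per library, close to the limit of detection. All these points share libraries, depth and the genotype difference, and each is the top of a long search, so they are a description only.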

How the data were processed

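RNA of interscapular brown adipose tissue was sequenced in 10 libraries, 5 labelled WT and 5 labelled *Mgp*-KO, and groups and replicate numbers were taken from the sample labels. The methods describe separate mice, so p-values measure the spread between these mice and libraries. Per the methods, the authors aligned their 50-base single reads to mm10 with STAR, counted reads on genes and divided them by size factors of DESeq2. The annotation release and strand setting are not given in the sources used here. The deposited values are therefore normalized counts, a signal for each gene in each library. All of them (100%) came out as whole reads after division by the smallest step of the library (tolerance 0.02 reads, largest deviation 0.0018), so reads were recovered. A value of 0 was read as at most 3 reads, which covers counting error only.

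Differences were fitted with limma 3.58.1 in R 4.3.3 (eBayes with trend) on log2(normalized count + 1), for 13714 genes with a mean of at least 10, without a block, with Benjamini-Hochberg adjustment and a threshold of 0.05. Log2 differences are on this scale, with the pseudocount of 1 understating those of low genes. Alternatives were other pseudocounts (0.5 and 10), filters (none and 50), equal upper quartiles, edgeR 4.0.16 and DESeq2 1.42.0 on recovered reads, the replicate block, a set term, each set alone, and each library left out. The set term with a library left out, and without the 3 libraries richest in muscle reads, was added after the data were seen. The fits were tested on simulated data.

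The 9 genes and the lists were chosen with earlier results of these data known. Named genes are the 9 genes, their near-identical copies, the other complement genes past the threshold without or with the set term or within replicates 1 to 3, the highest gene of each role list in WT, and for each member the 2 most alike patterns. Outside this rule, *Cpn2*, *Itgam*, *Itgax*, *Itgb2*, *Cr1l*, *C1qc* and *Clu* were singled out after their values were seen, and *Cd59b* is named for 1 library far from its group. Coordinates and exon lengths come from GENCODE M21 (GRCm38, the mm10 build), in which 25623 symbols (94.0%) were found once, and promoter sequences from RefSeq (GRCm38.p6). The values of 1 complement gene are not reported here.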

Additional observations from a re-analysis of the deposited data

Results flagged for a closer look

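Over 60 groups of 5 libraries (30 complement genes in each genotype group), 1 held a library far from the others on the log2 scale. *Cd59b*, which encodes an inhibitor of the membrane attack complex, had 25.9 normalized counts in the library labelled *Mgp*-KO 4, where the next lowest of its group, *Mgp*-KO 2, had 62.0. The gap was 0.717 of the range of the group, above Dixon's 95% critical value of 0.71. Chance gives such a gap in about 1 of 20 groups. None of the 8 members tested had such a library.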

How the results depend on the processing

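The log2 difference of *C3* between genotypes was below 0 under all 33 alternatives (-1.82 to -1.50), as were those of *C1s1* (-0.40 to -0.21) and *Cd55* (-0.55 to -0.35), that of *Serping1* was above 0 under all (0.02 to 0.47), and those of *C2*, *C4b*, *Cfd* and *C1ra* took both signs. No member moved by more than 1 pooled SD, and their median lay between -0.16 and 0.09. The count of all genes called between genotypes, 9, became 29 with a pseudocount of 10, 1 without a filter, 15 with a mean of at least 50, 3 in edgeR, 374 in DESeq2, 324 with the set term, 1152 in DESeq2 with the set term, 486 within replicates 1 to 3, 0 within replicates 4 and 5 (855 at an unadjusted p under 0.05) and 0 with the set term and without the 3 libraries richest in muscle reads, and ranged from 0 to 678 with single libraries left out without or with the set term. The causes of these changes were not tested, and some of the fits also used fewer libraries or genes. The count of other complement genes, 0, was 1 in DESeq2 and with the set term (*Vtn*), 2 in DESeq2 with the set term (*Vtn* among them), and 0 to 1 with single libraries left out.

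The methods speak of pairs of mice without saying what made a pair, and the labels do not tie replicate numbers to pairs. Deviations from the group means correlated between 0.056 and 0.527 for the same number (mean 0.390) and between -0.576 and 0.594 for other numbers (mean -0.0822). Within a replicate set, libraries of other numbers correlated at a mean of 0.416, and 2 of 5 WT libraries correlated best with their own number. The numbers were therefore not used as pairs in the main comparison. With the replicate block, 270 genes were called in all, 1 of them among the other complement genes (*Vtn*, limma adjusted p = 0.047).

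For the replicate sets, 2 members were called, 1 (*Serping1*) without a genotype term, and 1 to 2 with single libraries left out. The log2 difference of *Cd55* was 0.53 without a genotype term and 0.49 without WT 4, and with single libraries left out its difference ranged from 0.47 to 0.57. *Cfb* and *C2*, with at most 11 and 49 reads per library, are limited by depth.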
